A study of Mus musculus with 20 samples.

Results

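The genes described here encode the subunits of the mitochondrial respiratory chain and ATP synthase in mouse liver, measured after phenobarbital or vehicle. They were chosen by symbol alone. The symbols begin with Ndufa, Ndufb, Ndufc, Ndufs or Ndufv and a number, with Uqcr, with Cox4 to Cox8 or with Atp5, or are those of the 4 Sdh genes. Of 18193 genes measured, 81 met this rule. The filter on dim signal kept 79 of them, which were tested among 16054 genes. Those tested comprised 34 genes of complex I, 4 of complex II, 8 of complex III, 16 of complex IV and 17 of ATP synthase, also called complex V. Cox7b2 exceeded the background threshold on 0 arrays and Ndufb4 on 3, and neither was tested. Probe sets that Ndufb4 shares with Ndufb4b and Ndufb4c were bright, with group means of 11.66 to 12.34, but were not used, as described further on.

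Liver RNA of 20 male mice of the outbred CD-1 stock was hybridised to Affymetrix 3' expression arrays, with 1 array per mouse. Phenobarbital (PB), a barbiturate sedative, activates the nuclear receptor CAR in hepatocytes and so induces enzymes of drug metabolism. The 4 groups, each of 5 mice dosed orally each day with 10 mL/kg, were phenobarbital sodium at 80 mg/kg/day for 28 days (PB 28d), 0.5% methylcellulose 15 without drug for 28 days (CMC 28d), phenobarbital sodium at 80 mg/kg/day for 90 days (PB 90d), and the vehicle for 90 days (CMC 90d). The left lateral lobe was frozen the day after dosing ended, so each value averages over the cell types of that lobe, and the sources used here give no ages. Values are log2 intensities from the robust multi-array average (RMA), a background correction, normalisation and summary of the probes, and n = 5 mice per group throughout. Levels of different genes are not set against each other, since probes differ in brightness.

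The respiratory chain passes electrons released from fuel molecules to oxygen and pumps protons across the inner mitochondrial membrane. Complex I takes electrons from NADH and complex II from succinate, complex III passes them to cytochrome c, complex IV reduces oxygen, and ATP synthase uses the proton gradient to make ATP. Liver depends on this supply for gluconeogenesis and urea synthesis, and the nuclear-encoded subunits described here assemble with mitochondrially encoded ones, which were not analysed here.

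Arrays that stood apart affected several of the results. The first principal component of the tested genes held 55.6% of the variance. PB 28d replicate 5 scored -107.9 on it and PB 90d replicate 3 scored -65.2, against -39.8 for the next array. The 8 hepatocyte markers measured, such as Alb and Hnf4a, averaged 12.09 to 13.20 in PB 28d, 12.75 to 13.43 in CMC 28d, 12.50 to 13.57 in PB 90d, and 13.12 to 13.44 in CMC 90d. They were lowest in each PB group on the array that stood apart. The 75th percentile of all probe sets was also lowest on these arrays, at 6.62 and 6.81, against 6.87 to 7.17 on the other 18. Cyp2b10, the cytochrome P450 most used as a marker of phenobarbital exposure, read 11.68, 11.65, 10.81, 11.49 and 9.03 in PB 28d, against 6.99, 4.89, 5.85, 7.78 and 4.66 in CMC 28d. It read 11.93, 11.86, 10.54, 11.96 and 12.23 in PB 90d, against 7.76, 4.98, 5.31, 5.66 and 5.37 in CMC 90d. The PB and CMC arrays did not overlap for Cyp2b10 at either duration. For the respiratory chain genes, values over the other 18 arrays are given beside those over all 20 where they move by over 1.5 times or change sign.

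Nuclear respiratory factor 1 (NRF1) is a transcription factor known for activating many of these genes. Promoter windows are shown only for genes whose promoter held a motif described below. On both arrays that stood apart, Sdhd, Ndufs5, Atp5k and Uqcr11 read higher, and Sdha lower, than on the other arrays of the same PB group. Of the higher ones, only Ndufs5 and Atp5k were higher by over 0.5 log2 units on both arrays. Cox6a1 varied little among the 20 arrays. A promoter of 250 bases before to 50 bases after the gene start was listed for 66 of the 81 genes in RefSeq sequences of build GRCm38.p6. The NRF1 consensus, GCGCA followed by any base and GCGC, was searched on both strands. It occurred in 15 of these 66 promoters (22.7%), against 5.19% of 27025 genes with a listed promoter. By complex it occurred in 5 of 31 promoters of complex I, 2 of 3 of complex II, 1 of 5 of complex III, 1 of 12 of complex IV and 6 of 15 of ATP synthase. The ETS-family (GABPA) motif CCGGAAGT occurred on either strand in 5 promoters (7.58%, against 4.31%), and the YY1 motif AAGATGGCG in 6 (9.09%, against 1.64%). At least 1 of these motifs occurred in 37.9% of the promoters, against 10.3% of all genes. In the 80-base windows below, written 5′ to 3′ in the direction of transcription, capitals mark the NRF1 match, or in Uqcr11 the ETS match.
Sdha, chr13:74350251-74350330, minus strand: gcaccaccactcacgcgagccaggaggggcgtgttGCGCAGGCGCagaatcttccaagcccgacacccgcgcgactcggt
Sdhd, chr9:50603884-50603963, minus strand: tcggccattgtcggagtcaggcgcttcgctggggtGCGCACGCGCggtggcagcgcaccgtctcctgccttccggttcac
Ndufs5, chr4:123718240-123718319, minus strand: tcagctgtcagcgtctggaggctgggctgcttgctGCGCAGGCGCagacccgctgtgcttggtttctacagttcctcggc
Atp5k, chr5:108434405-108434484, minus strand: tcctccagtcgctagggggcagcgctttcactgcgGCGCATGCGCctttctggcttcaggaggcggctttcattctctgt
Cox6a1, chr5:115349076-115349155, minus strand: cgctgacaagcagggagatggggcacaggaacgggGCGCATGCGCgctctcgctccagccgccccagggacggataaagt
Uqcr11, chr10:80406844-80406923, minus strand: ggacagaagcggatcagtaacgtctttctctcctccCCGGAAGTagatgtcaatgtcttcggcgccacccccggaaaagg
The promoter of Sdha held 3 such matches, and the one shown begins 55 bases before the gene start. Of 19 listed promoters of genes that were higher by over 0.5 log2 units on both arrays, described further on, 2 held the NRF1 match. These were Ndufs5 and Atp5k, a share of 10.5%, against 22.7% of the 66 promoters, so the windows do not represent the higher genes. A match describes these letters and does not show that the factor binds.

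After 28 days, the tested transcripts of the respiratory chain did not separate PB from CMC livers. In limma's test, 0 of 79 were called at a Benjamini-Hochberg adjusted p under 0.05 (0.0498% of all genes tested were). An unadjusted p under 0.05 was reached by 0 (2.86% of all genes). The 2 groups were free of overlap for 0 (0.542% of all genes). The median change, PB minus CMC, was 0.02 log2 units over the 79 genes, of which 49 were positive, and -0.0016 over all genes. Leaving out any 1 array gave medians between -0.06 and 0.07. By complex the median change was 0.02 for complex I, -0.0013 for complex II, 0.03 for complex III, 0.02 for complex IV and 0.03 for ATP synthase. The 95% interval of the change lay within 1 log2 unit of 0, a 2-fold difference, for 78 of 79 genes, and within 0.5 for 58. Cox7a1, whose signal was near background, was the exception at 1 log2 unit. The mean over complex I genes was 11.79 ± 0.21 in PB 28d and 11.78 ± 0.29 in CMC 28d (SD, n = 5 each). That over ATP synthase genes was 12.82 ± 0.14 in PB 28d and 12.79 ± 0.23 in CMC 28d.

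**Figure D1:**
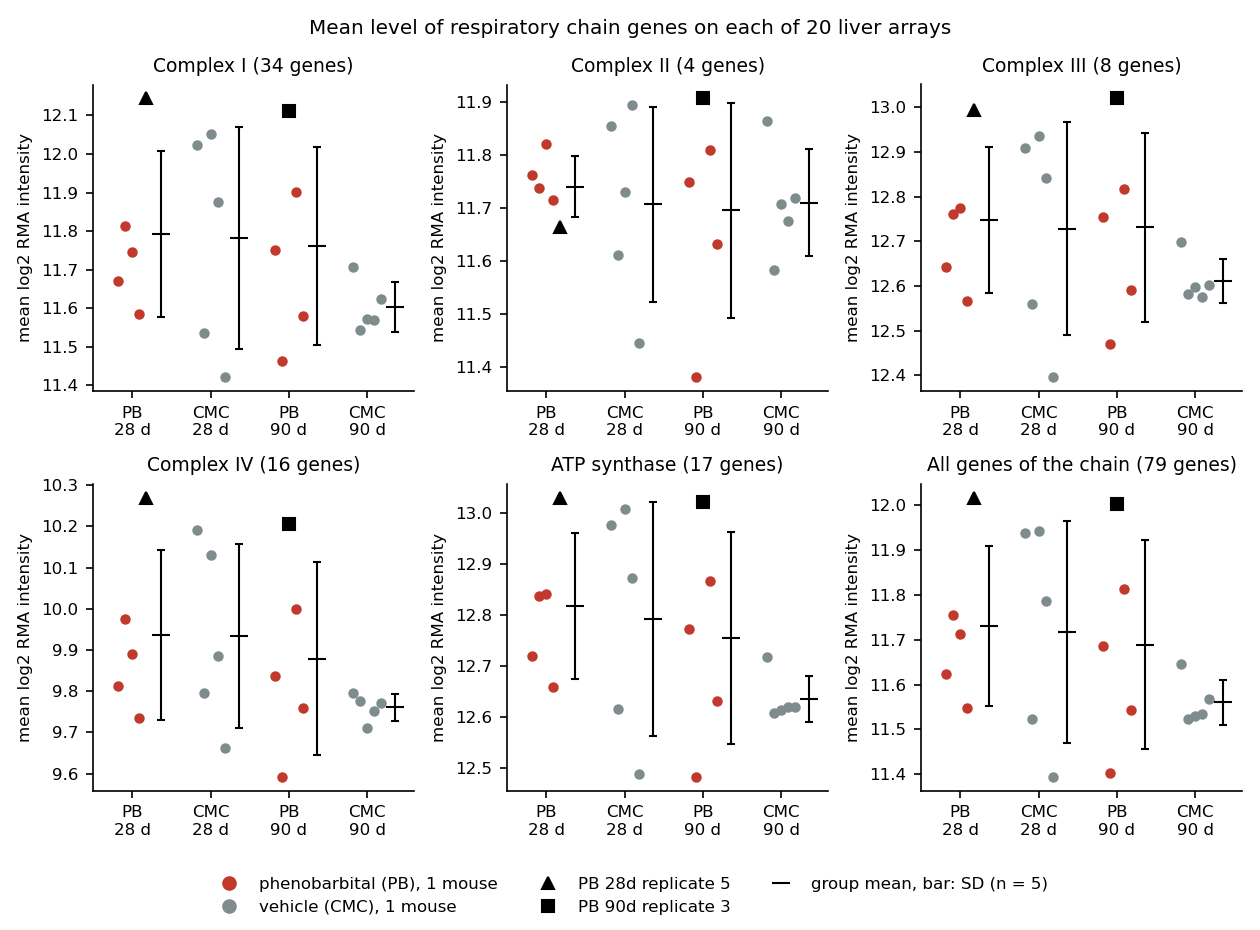
Mean log2 RMA intensity of the tested genes of each complex, and of all 79, on every array, with PB left of CMC at each duration, where circles are mice, the triangle is PB 28d replicate 5, the square is PB 90d replicate 3, and bars show the group mean ± SD (n = 5). The triangle is the highest PB 28d array in every panel except complex II, where it is the lowest, and the 5 CMC 90d arrays lie closer together than those of the other groups in every panel except complex II.

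Individual subunits at 28 days followed the same picture. Among the complex I genes, Ndufs1, the largest iron-sulfur subunit, read 10.60, 10.57, 10.62, 10.63 and 9.78 in PB 28d, against 10.44, 10.63, 10.11, 10.52 and 10.42 in CMC 28d. The groups overlapped, and replicate 5 was the lowest array of the PB group. The fitted change was 0.02 ± 0.16 log2 units (SE, 95% interval -0.32 to 0.35). Ndufa8, an accessory subunit, had the most negative change of complex I, -0.13 ± 0.19 log2 units (SE, 95% interval -0.53 to 0.26). Ndufa4l2, a paralog of Ndufa4 placed with complex I by its symbol alone, had the most positive, 0.20 ± 0.16 log2 units (SE, 95% interval -0.14 to 0.54). Its signal was dim, on average 2.05 log2 units above the 25th percentile. In complex II, Sdhb, the iron-sulfur subunit, read 12.94, 12.83, 12.86, 12.75 and 12.86 in PB 28d, against 12.85, 12.64, 12.84, 12.84 and 12.24 in CMC 28d. Of the 5 CMC arrays, 3 lay within the PB range and replicate 5 was the lowest. The change of Sdhb was 0.17 ± 0.12 log2 units (SE, 95% interval -0.08 to 0.41), the most positive of that complex. Sdhd, a membrane anchor, had the most negative, -0.03 ± 0.22 log2 units (SE, 95% interval -0.49 to 0.43). Over the 18 arrays without those that stood apart, the changes at 28 days were 0.18 for Ndufs1, -0.23 for Ndufa8, 0.10 for Ndufa4l2 and -0.09 for Sdhd.

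Complexes III and IV gave small changes at 28 days too. Uqcrfs1, the Rieske iron-sulfur protein that hands electrons on within complex III, read 12.40, 12.45, 12.48, 12.37 and 12.26 in PB 28d, against 12.56, 12.47, 12.46, 12.54 and 12.14 in CMC 28d. The groups overlapped, and the change was -0.04 ± 0.11 log2 units (SE, 95% interval -0.27 to 0.18). The extremes of complex III were Uqcr10, at 0.10 ± 0.19 log2 units (SE), and Uqcrb, at -0.08 ± 0.09 log2 units (SE), both small accessory subunits. Cox4i1, the ubiquitous form of complex IV subunit 4, read 13.55, 13.72, 13.66, 13.43 and 13.95 in PB 28d, against 13.84, 13.45, 13.95, 13.78 and 13.25 in CMC 28d. The arrays of these groups interleaved, and the change was 0.01 ± 0.14 log2 units (SE, 95% interval -0.28 to 0.29). Cox5a and Cox5b, further nuclear-encoded subunits of the enzyme, had changes of 0.02 ± 0.10 log2 units (SE) and -0.03 ± 0.13 log2 units (SE). The smallest unadjusted p among the 79 genes was 0.168 for Cox8b, the heart and muscle form of subunit 8, at 0.28 ± 0.20 log2 units (SE, 95% interval -0.13 to 0.69) with an adjusted p of 0.9999 in limma. PB 28d replicate 5 was its highest array, and over the 18 arrays the change was 0.08 (unadjusted p = 0.619 in limma). The other changes that moved there were -0.01 for Uqcrfs1, -0.02 for Uqcr10, -0.07 for Cox4i1, 0.04 for Cox5a and -0.13 for Cox5b.

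In ATP synthase at 28 days, the catalytic subunit Atp5b read 13.35, 13.25, 13.29, 13.36 and 12.50 in PB 28d, against 13.16, 13.28, 12.75, 13.07 and 13.10 in CMC 28d. Of the PB arrays, 3 lay above all 5 CMC arrays and replicate 5 lay below them all. The change of Atp5b was 0.08 ± 0.14 log2 units (SE, 95% interval -0.22 to 0.38). Atp5a1, the partner alpha subunit, read 12.96, 12.88, 13.07, 13.03 and 12.04 in PB 28d, against 12.69, 12.94, 12.32, 12.84 and 12.89 in CMC 28d. Replicate 5 of the PB group was again below every CMC array, and the change was 0.06 ± 0.17 log2 units (SE, 95% interval -0.29 to 0.41). Atp5g1, a gene for the ring subunit c, had a change of 0.01 ± 0.10 log2 units (SE). Atp5k and Atp5mpl, small membrane subunits, were the extremes of the complex at 0.12 ± 0.21 log2 units (SE) and -0.09 ± 0.30 log2 units (SE). The changes over the 18 arrays were 0.24 for Atp5b, 0.25 for Atp5a1, -0.02 for Atp5g1, -0.05 for Atp5k and -0.31 for Atp5mpl.

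After 90 days, 64 of the 79 transcripts had a positive fitted change, with a median of 0.15 log2 units. Over all genes the median was 0.03 and 56.2% were positive. limma called 0 of 79 at an adjusted p under 0.05 (0.143% of all genes were called), and 0 had an unadjusted p under 0.05 (4.53% of all genes). Groups without overlap were seen for 1 gene, Ndufv1 (1.07% of all genes). The median change was 0.18 for complex I, 0.04 for complex II, 0.17 for complex III, 0.14 for complex IV and 0.16 for ATP synthase. The interval lay within 1 log2 unit of 0 for 76 of 79 genes and within 0.5 for 40, and the exceptions at 1 were Ndufa7, Ndufs4 and Cox7a1. The mean over complex I genes was 11.76 ± 0.26 in PB 90d and 11.60 ± 0.07 in CMC 90d (SD, n = 5 each). That over complex II genes was 11.70 ± 0.20 in PB 90d and 11.71 ± 0.10 in CMC 90d. Without PB 90d replicate 3 the median change of the 79 genes was 0.07. With each array centred on its 75th percentile it was 0.24, and that of all genes was 0.13.

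**Figure D2:**
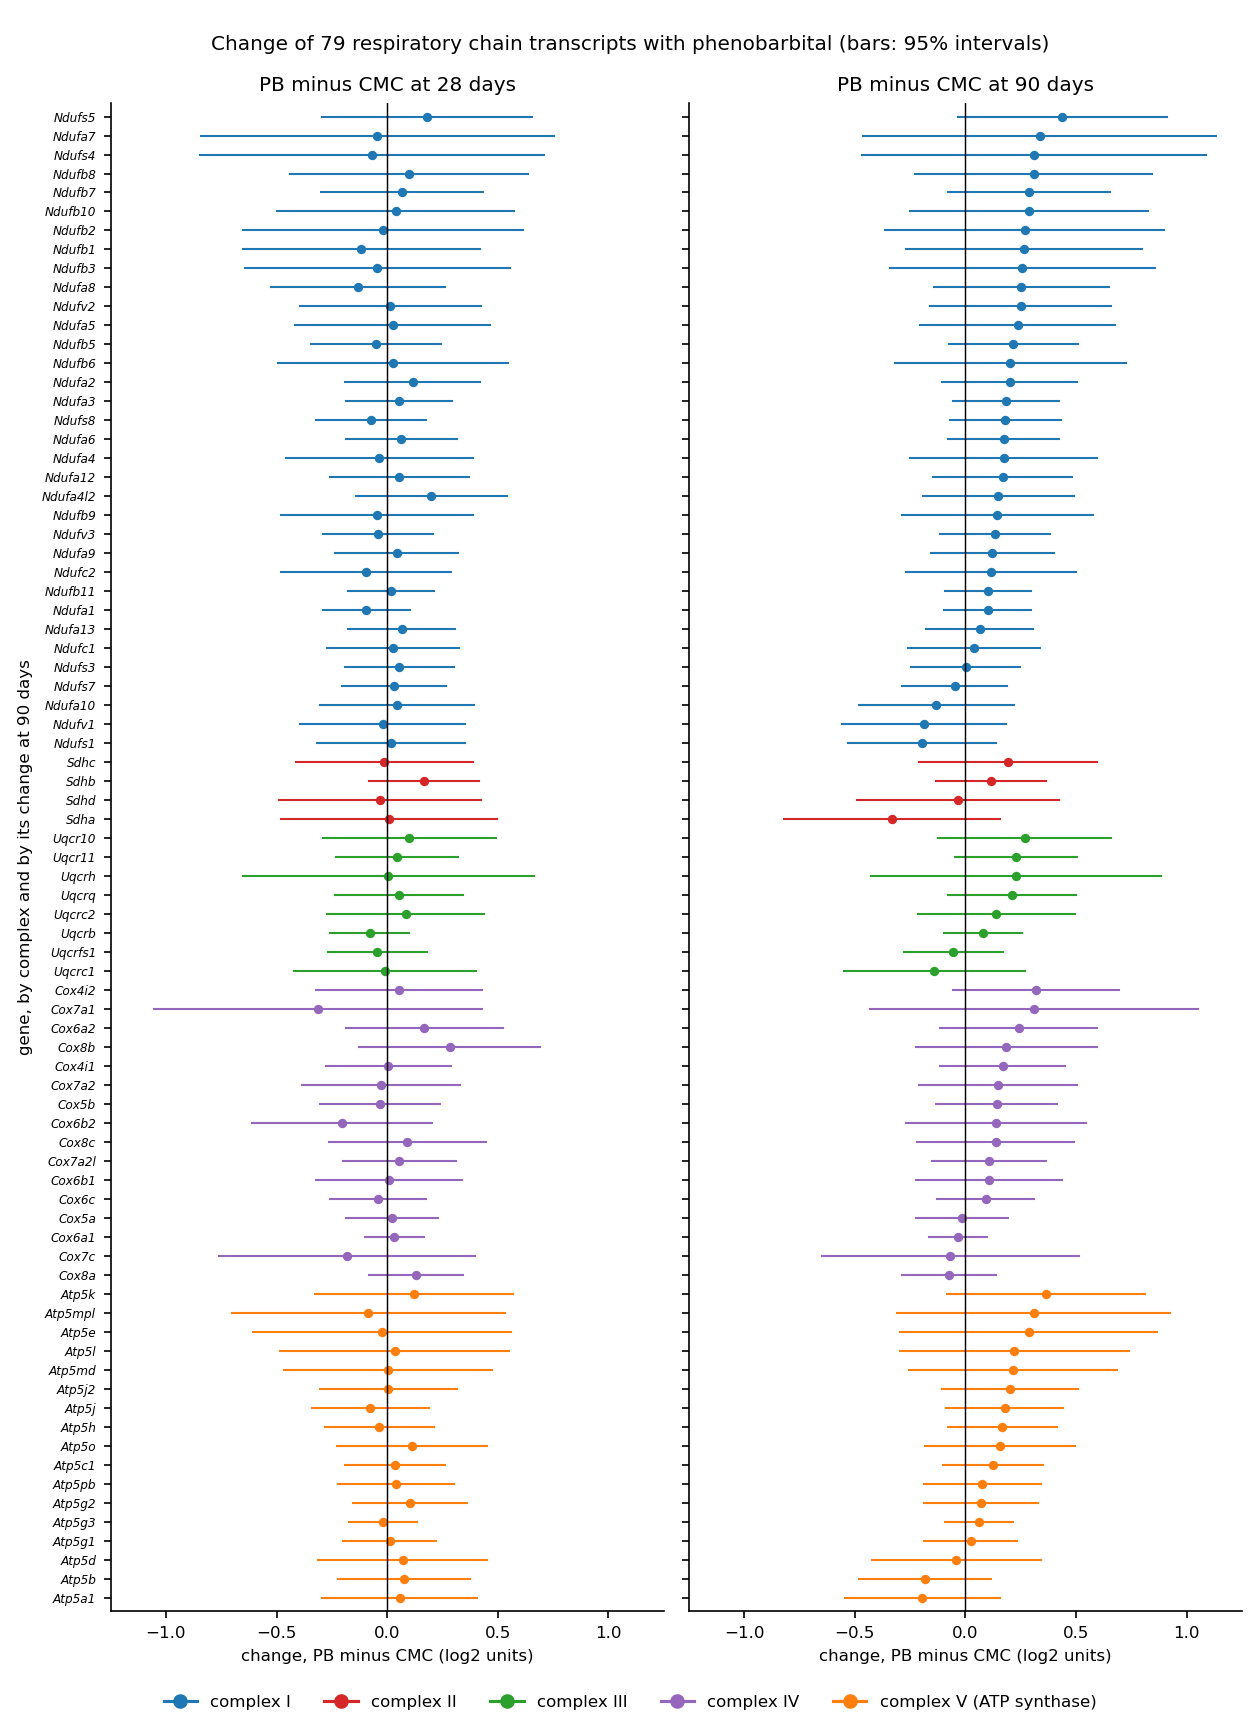
Fitted change in log2 units, PB minus CMC, for each of the 79 tested genes at 28 days (left) and 90 days (right), with genes grouped by complex, where points are estimates and bars 95% intervals (n = 5 mice per group). Every interval includes 0 at both durations, and more points lie to the right of 0 at 90 days (64 of 79) than at 28 days (49 of 79).

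Of the 79 genes, Ndufs5 had the most positive change at 90 days. Ndufs5, an accessory subunit of the complex I membrane arm, read 11.15, 10.55, 11.66, 11.35 and 11.03 in PB 90d, against 11.10, 10.38, 10.48, 10.53 and 11.05 in CMC 90d. The groups overlapped, with PB replicate 2 among the low CMC arrays and PB replicates 1, 3 and 4 above all of them. Its change of 0.44 ± 0.23 log2 units (SE, 95% interval -0.04 to 0.91), a 1.36-fold difference, was the largest of the 79. The unadjusted p was 0.0681 and the adjusted p 0.816 in limma. Atp5k, a small subunit of the ATP synthase membrane part, read 12.77, 12.31, 13.24, 12.89 and 12.50 in PB 90d, against 12.49, 12.30, 12.31, 12.41 and 12.39 in CMC 90d. Of the 5 PB arrays, 4 lay above the highest CMC array. The change of Atp5k, 0.36 ± 0.21 log2 units (SE, 95% interval -0.08 to 0.81), was the most positive of its complex. Uqcr11, a small subunit of complex III, read 12.82, 12.70, 13.23, 12.97 and 12.67 in PB 90d, against 12.68, 12.66, 12.61, 12.67 and 12.63 in CMC 90d. Again 4 of 5 PB arrays lay above all CMC arrays, and the change was 0.23 ± 0.13 log2 units (SE, 95% interval -0.05 to 0.51). Uqcr10 had a change of 0.27 ± 0.19 log2 units (SE, 95% interval -0.12 to 0.66), the most positive of complex III. Sdhc, a membrane anchor, had the most positive of complex II, 0.19 ± 0.19 log2 units (SE, 95% interval -0.21 to 0.59). Without PB 90d replicate 3 and PB 28d replicate 5 these changes were 0.31 for Ndufs5, 0.24 for Atp5k, 0.14 for Uqcr11, 0.15 for Uqcr10 and 0.08 for Sdhc, and Ndufs5 was still the most positive.

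Negative changes at 90 days were found for 15 of the 79 genes. Sdha, the flavoprotein that oxidises succinate, read 12.39, 12.07, 11.44, 11.95 and 12.27 in PB 90d, against 12.37, 12.19, 12.40, 12.38 and 12.43 in CMC 90d. Of the 5 PB arrays, 3 lay below all CMC arrays, replicate 3 the furthest. Its change of -0.33 ± 0.23 log2 units (SE, 95% interval -0.82 to 0.16) was the most negative of the 79, with an adjusted p of 0.816 in limma. Over the 18 arrays it was -0.19, and the most negative was then Cox7c, a complex IV subunit, at -0.25. The probe set used for Cox7c was dim, on average 2.14 log2 units above the 25th percentile. Ndufv1, which binds NADH and flavin in complex I, read 11.88, 11.95, 11.60, 11.85 and 11.93 in PB 90d, against 12.04, 12.03, 12.01, 12.02 and 12.05 in CMC 90d. All 5 PB arrays lay below all 5 CMC arrays, which lay close together. The change was -0.19 ± 0.18 log2 units (SE, 95% interval -0.56 to 0.18) with an adjusted p of 0.816 in limma, whose fit shares 1 estimate of the spread over the 4 groups. Ndufs1 read 10.48, 10.48, 10.53, 10.53 and 10.47 in PB 90d, against 10.95, 10.45, 10.74, 10.65 and 10.69 in CMC 90d. CMC replicate 2 lay below every PB array and the other 4 above them all. The change of Ndufs1 was -0.20 ± 0.16 log2 units (SE, 95% interval -0.53 to 0.14). Atp5a1 and Atp5b had changes of -0.20 ± 0.17 log2 units (SE) and -0.18 ± 0.14 log2 units (SE). Uqcrc1, a core subunit of complex III, had the most negative of its complex, -0.14 ± 0.20 log2 units (SE). Ndufs3, Cox5a, Cox5b, Cox4i1, Uqcrfs1, Sdhb, Sdhd and Atp5g1 had changes between -0.05 and 0.17. Other subunits with iron-sulfur clusters or core roles had positive changes, 0.25 for Ndufv2, 0.18 for Ndufs8 and 0.14 for Uqcrc2. Leaving out both arrays that stood apart gave -0.13 for Ndufv1, -0.21 for Ndufs1, -0.10 for Atp5a1, -0.18 for Atp5b and -0.07 for Uqcrc1. There the 8 further genes lay between -0.23 for Sdhd and 0.08 for Cox5b. Ndufv2, Ndufs8 and Uqcrc2 gave 0.13, 0.10 and 0.03.

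Markers of the cell types of the liver and blood were measured on the same arrays. Neutrophil markers (8 tested) averaged 6.06 ± 0.21 in PB 28d and 5.34 ± 0.15 in CMC 28d, without overlap, and 5.83 ± 0.45 in PB 90d and 4.99 ± 0.15 in CMC 90d, with overlap (SD, n = 5 each). S100a8, a calcium-binding protein abundant in neutrophils, had a change of 5.06 at 28 days (adjusted p = 0.248 in limma) and rose by 6.28 at 90 days (adjusted p = 0.0163). The other 7, such as Elane and Mpo, had changes between -0.15 and 0.28 at 28 days and between -0.09 and 0.22 at 90 days, with 0 called, among them S100a9, the partner of S100a8, at -0.15 and -0.01. Of 8 hepatocyte markers, 0 had a positive change at 28 days (median -0.07) and 1 at 90 days (median -0.16). Of 9 Kupffer cell and macrophage markers, 8 were positive at 28 days (median 0.17) and 1 at 90 days (median -0.28), and of 8 lymphocyte markers 7 and 8 were (medians 0.18 and 0.14). Without PB 28d replicate 5, the lymphocyte mean was 5.51 in PB 28d (5.66 with it), against 5.53 in CMC 28d. The hepatocyte mean was 13.12 (12.91 with it) against 13.13, and the Kupffer cell mean 8.09 (8.16 with it) against 8.02. Without PB 90d replicate 3, these means in PB 90d were 5.37, 13.16 and 7.16, against 5.30, 13.28 and 7.59 in CMC 90d. The part of these cell types in the changes of the respiratory chain genes was not tested.

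Averaged over both durations, the median change of the 79 genes was 0.08, with 66 positive. It was 0.03 without PB 28d replicate 5, PB 90d replicate 3 or CMC 28d replicate 5 and 0.04 without CMC 28d replicate 2, and -0.01 with scores on principal component 1 in the fit. limma called 0 (0.212% of all genes), and 0 had an unadjusted p under 0.05 (6.6% of all genes). The test of whether the PB change differed between 90 and 28 days called 0 of 79 (0% of all genes). An unadjusted p under 0.05 was reached by 0 (1.38% of all genes), and the median difference was 0.16. Without 1 array it was 0.05 (PB 90d replicate 3), 0.07 (CMC 28d replicate 3), 0.08 (CMC 28d replicate 1) or 0.09 (PB 28d replicate 4), and it was 0.05 with scores on principal component 1 in the fit. The largest such difference was 0.62 for Cox7a1 and the most negative -0.34 for Sdha. A difference between the durations in the PB change was thus not shown for any of these genes.

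Leaving out PB 28d replicate 5 and PB 90d replicate 3 turned the direction at 28 days and lowered the median at 90 days. Over the remaining 18 arrays the median change at 28 days was -0.06, with 25 of 79 positive. limma called 0 (0.0685% of all genes), and 4 genes had an unadjusted p under 0.05 (4.07% of all genes). They were Atp5a1 at 0.25 ± 0.11 log2 units (SE), Atp5b at 0.24 ± 0.11 and Atp5d, the delta subunit, at 0.27 ± 0.12. The last was Cox7a1 at -0.60 ± 0.29, and the adjusted p of all 4 was 0.973 in limma. At 90 days the median was 0.07, with 60 of 79 positive. There, 0 were called (0.174% of all genes) and 0 had an unadjusted p under 0.05 (4.15% of all genes). The medians at 28 days were -0.09, 0.04, -0.05, -0.05 and -0.03 for complexes I, II, III, IV and V, and at 90 days 0.07, -0.06, 0.05, 0.06 and 0.07. The difference between the durations over 18 arrays had an unadjusted p under 0.05 for Atp5b (-0.42), Sdha (-0.47), Atp5a1 (-0.35) and Ndufs1 (-0.39), against 2.62% of all genes, and was called for 0. Averaged over the durations, the median was -0.0017, against 0.08 over all 20 arrays. There, 39 of 79 changes over the 18 arrays were positive, 0 were called (0.255% of all genes) and 0 had an unadjusted p under 0.05 (5.46% of all genes). The median at 28 days was also negative without CMC 28d replicate 2 (-0.03) or CMC 28d replicate 5 (-0.05).

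**Figure D3:**
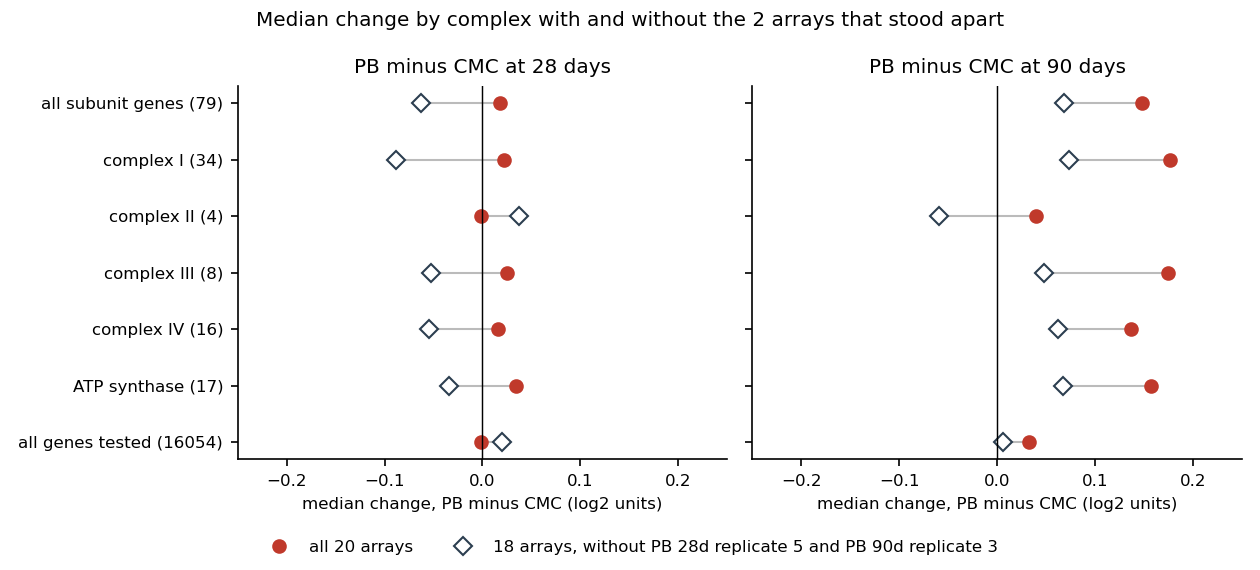
Median change in log2 units, PB minus CMC, over the genes of each complex, all 79 genes and all genes tested, at 28 days (left) and 90 days (right), where filled circles use all 20 arrays and open diamonds 18 arrays, without PB 28d replicate 5 and PB 90d replicate 3. At 28 days the medians of all 79 genes and of complexes I, III, IV and V lie above 0 with these arrays and below it without them, and that of complex II does the opposite. At 90 days only the median of complex II changes side.

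Between the durations, most respiratory chain genes read lower in the vehicle livers at 90 days than at 28 days, but the test called none. The median change, CMC 90d minus CMC 28d, was -0.17 log2 units, against -0.03 over all genes, with 17 of 79 positive. It was -0.11 without CMC 28d replicate 3, -0.29 with each array centred on its 75th percentile (all genes -0.15) and -0.02 with scores on principal component 1 in the fit. limma called 0 (0% of all genes). An unadjusted p under 0.05 was reached by 3 genes (5.69% of all genes), and the groups did not overlap for 2 (2.33% of all genes), both of them higher at 90 days. Ndufv1 read 12.04, 12.03, 12.01, 12.02 and 12.05 in CMC 90d, against 11.54, 12.00, 11.19, 11.79 and 11.68 in CMC 28d. Its change was 0.39 ± 0.18 log2 units (SE, 95% interval 0.02 to 0.76) with an adjusted p of 0.636 in limma. Ndufa13, an accessory subunit of complex I also known as GRIM-19, read 12.67, 12.77, 12.79, 12.63 and 12.72 in CMC 90d, against 12.55, 12.61, 12.21, 12.51 and 12.33 in CMC 28d. Its change was 0.28 ± 0.12 log2 units (SE, 95% interval 0.03 to 0.52). All 5 of the later arrays lay above all 5 of the earlier ones for both genes. Ndufa1, a small subunit of the membrane arm, had a change of -0.23 ± 0.09 log2 units (SE, 95% interval -0.43 to -0.04) with overlapping groups. Over the 18 arrays, where the CMC arrays are the same but the shared spread is smaller, 27 of 79 genes had an unadjusted p under 0.05 in this comparison (17.5% of all genes), and 0 were called (0% of all genes).

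In the PB livers the median change, PB 90d minus PB 28d, was -0.04, with 26 of 79 positive. Its sign turned without PB 28d replicate 5 (0.01) or PB 90d replicate 2 (0.02), and it was -0.11 without PB 90d replicate 3, -0.01 without PB 90d replicate 5 and -0.09 without PB 28d replicate 4. It was 0.03 with scores on principal component 1 in the fit. limma called 0 (0.00623% of all genes), and 1 had an unadjusted p under 0.05 (4.23% of all genes). That was Ndufa13, which read 12.73, 12.84, 12.78, 12.86 and 12.70 in PB 90d, against 12.65, 12.55, 12.62, 12.68 and 12.04 in PB 28d. The groups did not overlap (0.635% of all genes), and the change was 0.27 ± 0.12 log2 units (SE, 95% interval 0.03 to 0.52) with an adjusted p of 0.971. Without the 2 arrays that stood apart, the change of Ndufa13 was 0.16 (unadjusted p = 0.113 in limma). Over those 18 arrays, Atp5b (-0.24) and Sdhd (-0.42) had an unadjusted p under 0.05 (3.86% of all genes), and 0 were called (0.0125% of all genes). The mice of the 2 durations were separate animals, and treatment time and age cannot be told apart here.

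The mean over the genes differed more among mice of a group than between treatments, except in CMC 90d. The mean over all 79 genes was 11.62, 11.75, 11.71, 11.55 and 12.02 in PB 28d, against 11.94, 11.52, 11.94, 11.79 and 11.39 in CMC 28d. It was 11.69, 11.40, 12.00, 11.81 and 11.54 in PB 90d, against 11.65, 11.52, 11.53, 11.53 and 11.57 in CMC 90d. Group means were 11.73 ± 0.18 in PB 28d, 11.72 ± 0.25 in CMC 28d, 11.69 ± 0.23 in PB 90d and 11.56 ± 0.05 in CMC 90d (SD, n = 5 each), so the vehicle livers at 90 days were the most alike. The 5 highest arrays were PB 28d replicate 5, PB 90d replicate 3, CMC 28d replicates 1 and 3 and PB 90d replicate 4. They were also the 5 with the lowest scores on the first principal component, and 2 of them were vehicle livers. A gene's range across the 20 arrays was smallest for Atp5g3, a gene for the ring subunit c of ATP synthase, at 0.31 log2 units, and largest for Ndufa7, at 2.70. PB 28d replicate 5 held the highest value of 35 genes and the lowest of 12, and CMC 28d replicate 5 and PB 90d replicate 2 each held the lowest value of 24. In bulk tissue, fewer cells of a type and less RNA per cell cannot be told apart.

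On the arrays that stood apart most respiratory chain genes were high while a smaller number were low. The members named for this pattern were chosen after their values were seen, and the deviations are descriptions with no test. On PB 28d replicate 5, 61 of 79 genes lay above the median of the other 4 PB 28d arrays (8696 of all 16054 genes). Higher by over 0.5 log2 units were 36 (45.6%, against 22.8% of all genes). Lower by over 0.5 were 10 (12.7%, against 27.7%). On PB 90d replicate 3, 71 of 79 lay above the other 4 PB 90d arrays' median (9253 of all 16054 genes). Higher by over 0.5 were 28 (35.4%, against 18.9%). Lower by over 0.5 were 2 (2.53%, against 19.2%). Both arrays held 23 genes that were higher by over 0.5 (29.1%, against 11.2% of all genes). Lower by over 0.5 on both were 2, Sdha and Atp5d (2.53%, against 16.7% of all genes). In complex I the 23 were Ndufa7, Ndufb1, Ndufb2, Ndufb3, Ndufb6, Ndufb8, Ndufb9, Ndufb10, Ndufc2, Ndufs4, Ndufs5 and Ndufv2. The others were Sdhc, Uqcr10, Uqcrc2, Uqcrh, Cox6b1, Cox7a1, Cox7c, Atp5e, Atp5k, Atp5l and Atp5mpl, of which Cox7a1 and Cox7c gave dim signals. The sign of the deviation differed between the arrays for 10 genes.

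**Figure D4:**
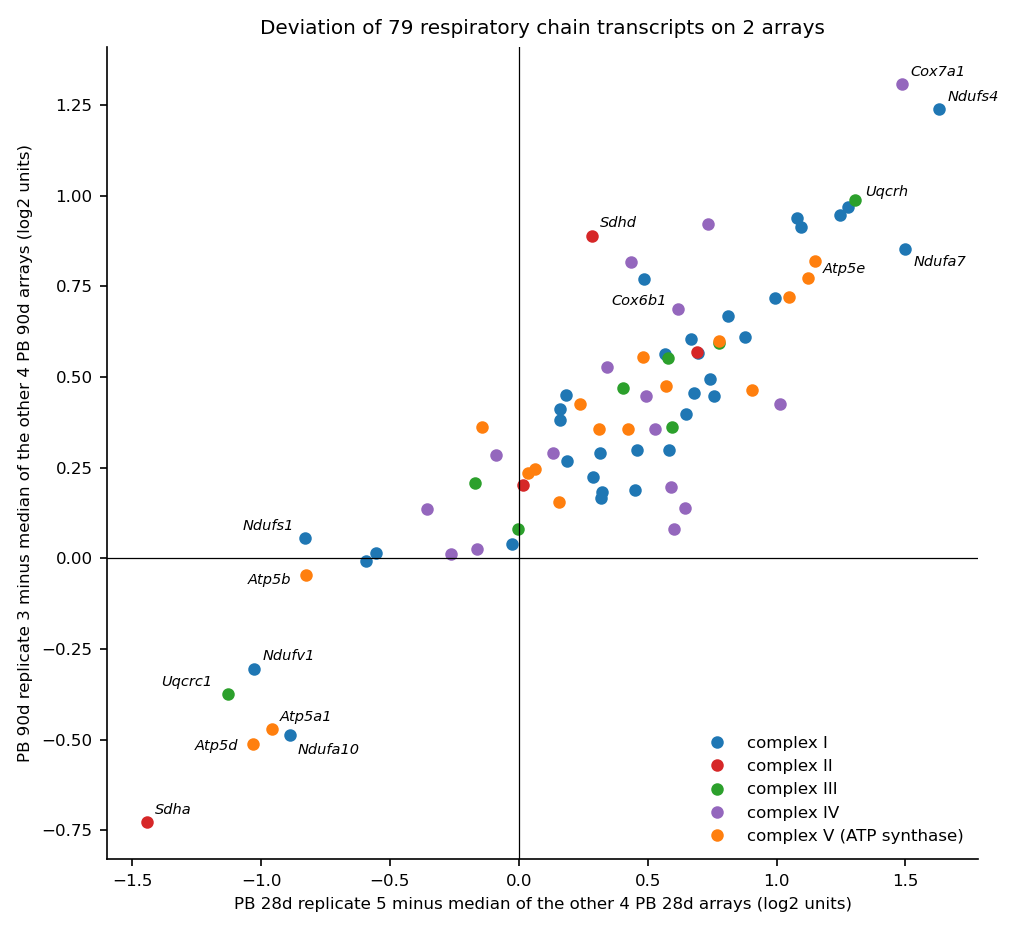
Deviation of each of the 79 tested genes, in log2 units, on PB 28d replicate 5 from the median of the other 4 PB 28d arrays (horizontal axis) and on PB 90d replicate 3 from that of the other 4 PB 90d arrays (vertical axis), coloured by complex. Most genes lie at the upper right, led by Ndufs4 and Cox7a1, and Sdha, Uqcrc1, Atp5d, Ndufv1, Atp5a1 and Ndufa10 lie at the lower left.

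Ndufs4, an accessory subunit needed for a stable and active complex I, read 10.31, 10.87, 10.53, 10.26 and 12.05 in PB 28d, against 11.30, 10.06, 11.73, 11.13 and 10.16 in CMC 28d. It read 10.64, 9.73, 11.60, 10.85 and 10.09 in PB 90d, against 10.46, 10.04, 10.18, 10.46 and 10.22 in CMC 90d. It stood 1.63 log2 units above the other PB 28d arrays on replicate 5 and 1.24 above the other PB 90d arrays on replicate 3, and the vehicle arrays CMC 28d 1, 3 and 4 were also above 11. Uqcrh, the hinge protein of complex III, stood higher by 1.30 and 0.99, and Ndufa7, an accessory subunit of complex I, by 1.498 and 0.85. Atp5e, the epsilon subunit of the ATP synthase stalk, stood higher by 1.15 and 0.82. Among the low genes, Sdha stood at -1.44 and -0.73, Uqcrc1 at -1.13 and -0.37, and Ndufv1 at -1.03 and -0.30. Of the ATP synthase genes, Atp5d stood at -1.03 and -0.51 and Atp5a1 at -0.96 and -0.47. Ndufa10, an accessory subunit of complex I, stood at -0.89 and -0.49. Within complex II, Sdha was low while Sdhc stood at 0.69 and 0.57 and Sdhd at 0.28 and 0.89, and Sdhb at 0.02 and 0.20. With each array centred on its 75th percentile, Sdha, Uqcrc1, Atp5d, Ndufv1, Atp5a1 and Ndufa10 stood between -1.03 and -0.47 on PB 28d replicate 5. On PB 90d replicate 3, Sdha stood at -0.52, Atp5d at -0.31, Atp5a1 at -0.22 and Ndufa10 at -0.20, while Uqcrc1 at -0.08 and Ndufv1 at -0.07 were close to 0. Atp5b (-0.05) and Ndufa13 (-0.01) turned positive on PB 90d replicate 3. The higher genes then numbered 69 on PB 28d replicate 5 and 73 on PB 90d replicate 3.

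**Figure D5:**
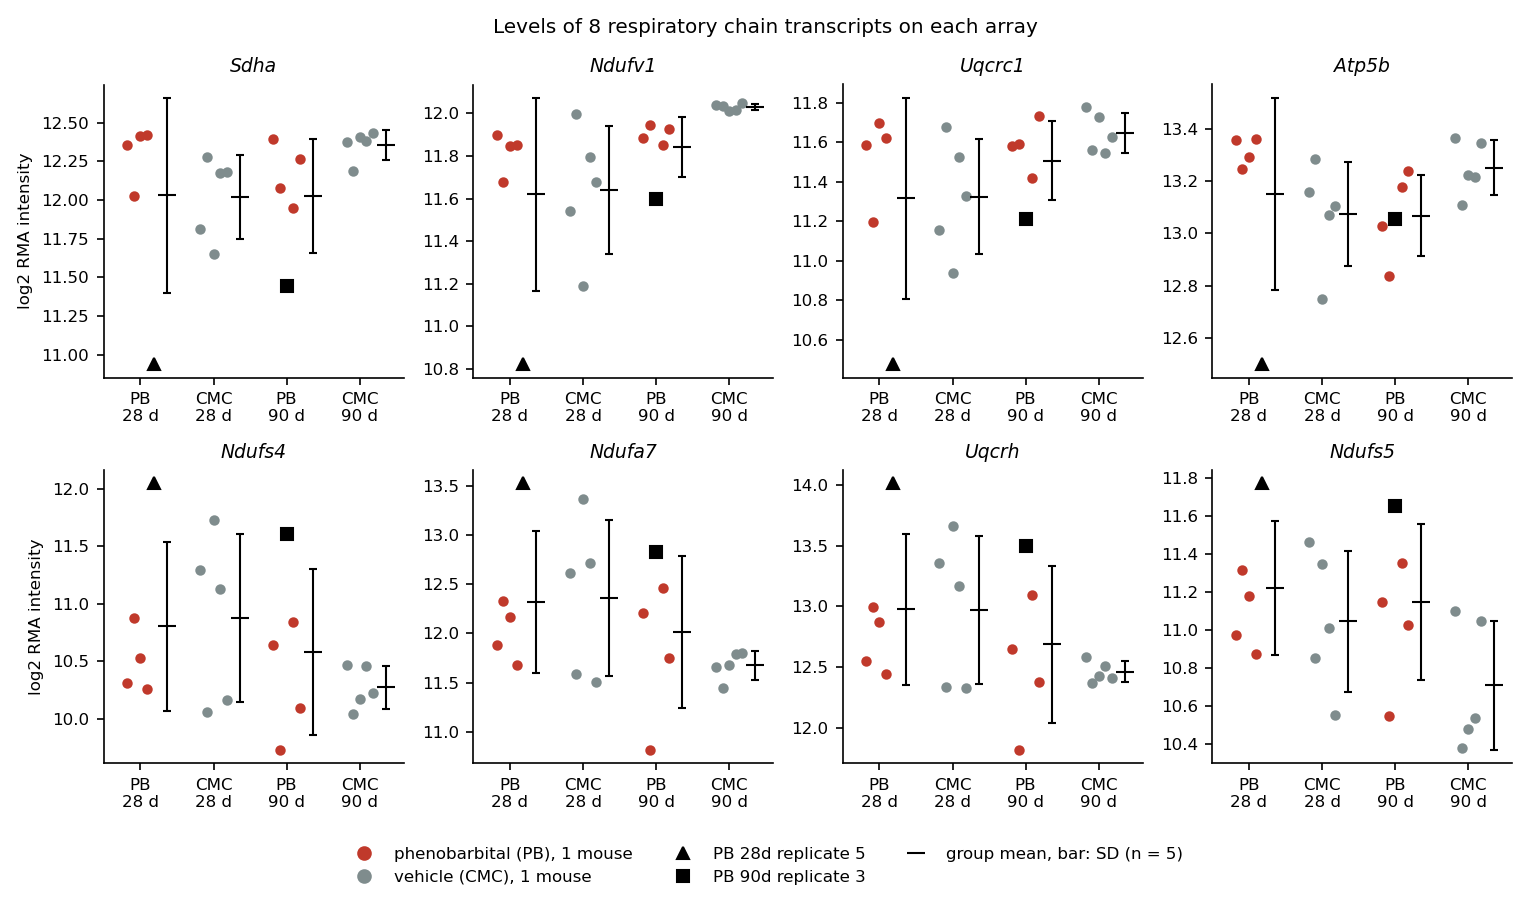
Log2 RMA intensity of 8 transcripts on each array, PB left of CMC at each duration, with symbols as in the plot of complex means and bars for the group mean ± SD (n = 5). The upper row shows Sdha, Ndufv1, Uqcrc1 and Atp5b, which were lowest of their group on PB 28d replicate 5, and the lower row Ndufs4, Ndufa7, Uqcrh and Ndufs5, which were highest of their group on PB 28d replicate 5 and on PB 90d replicate 3.

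Other probe sets of the same genes bear on this pattern, since the arrays often hold several per gene. Of the 79 genes, 47 had several probe sets that passed the filter, and the sign of the change between treatments differed among them for 20 at 28 days and for 14 at 90 days. On PB 28d replicate 5, all 5 probe sets of Ndufa7 were higher, by 1.27 to 1.51 log2 units. The 3 probe sets of Ndufs4 above background were higher by 0.91 to 1.93. The 3 probe sets of Ndufv1 stood between -1.06 and -0.94, and the 2 brightest of Sdha at -1.44 and -1.62, whereas 2 dim Sdha probe sets stood at -0.31 and -0.09. For Ndufa10 the second probe set stood at 0.19. For Atp5a1 the dimmest of 3 stood at 0.10. Of 8 hepatocyte markers, 0 were higher on PB 28d replicate 5 (median -0.74) and 1 on PB 90d replicate 3 (median -0.32). Lymphocyte markers were higher for 7 of 8 and 8 of 8, with medians of 0.84 and 0.35. Kupffer cell and macrophage markers were higher for 7 of 9 and 8 of 9, with medians of 0.40 and 1.07. Of these, Csf1r was lowest, at -1.77 and -0.20. Higher among neutrophil markers were 5 and 7 of 8 (medians 0.13 and 0.25). Endothelial cell markers gave 5 and 7 of 10 (0.18 and 0.36). Stellate cell and fibroblast markers gave 5 of 10 on each (-0.23 and 0.01). Cholangiocyte markers gave 3 and 4 of 6 (0.03 and 0.24), erythroid markers 3 and 2 of 4 (0.26 and -0.09). Adipocyte markers gave 4 and 3 of 4 (0.54 and 0.03), exocrine pancreas markers 5 and 6 of 6 (0.28 and 0.42). The part of these cell types in the pattern was not tested.

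Of the tissue-specific isoforms of complex IV subunits, 5 gave dim signals. Cox6b2, Cox8b, Cox7a1, Cox4i2 and Cox6a2, forms known from testis, heart, muscle or lung, averaged 0.62, 0.63, 0.94, 1.40 and 2.12 log2 units above the array's 25th percentile, in that order. Cox8c, a form known from testis, was brighter, with an average level of 8.05 over all arrays and changes of 0.09 at 28 days and 0.14 at 90 days (-0.02 and 0.11 over the 18 arrays). Cox7a1 read 4.63, 4.78, 4.45, 4.45 and 6.03 in PB 28d, against 6.12, 4.64, 5.56, 5.32 and 4.25 in CMC 28d. It read 5.03, 4.27, 6.12, 5.52 and 4.60 in PB 90d, against 4.80, 4.82, 4.90, 4.88 and 4.60 in CMC 90d. Its highest arrays, CMC 28d 1, PB 90d 3 and PB 28d 5, were among those with the highest means over all 79 genes. The change was -0.31 ± 0.36 log2 units (SE, 95% interval -1.06 to 0.43) at 28 days and 0.31 ± 0.36 log2 units (SE, 95% interval -0.43 to 1.05) at 90 days. Over the 18 arrays it was -0.60 and 0.06. The 10 skeletal and cardiac muscle markers measured, such as Acta1, averaged 4.64 to 5.06 in PB 28d, 4.55 to 4.82 in CMC 28d, 4.50 to 4.98 in PB 90d, and 4.46 to 4.80 in CMC 90d. Of the 7 tested, 6 were higher on PB 28d replicate 5 (median 0.51) and 7 on PB 90d replicate 3 (median 0.29), and their part in these values was not tested. Cox4i2 had a change of 0.32 ± 0.18 log2 units (SE, 95% interval -0.06 to 0.69) at 90 days, with PB replicate 3 its highest array at 6.24 and 0.14 over the 18 arrays. The ubiquitous forms Cox6a1, Cox6b1, Cox7a2 and Cox8a had changes at 28 days of 0.03, 0.01, -0.03 and 0.13, and at 90 days of -0.03, 0.11, 0.15 and -0.07. These were, over the 18 arrays, 0.09 for Cox6a1, -0.11 for Cox6b1, -0.13 for Cox7a2 and 0.16 for Cox8a at 28 days, and -0.03 for Cox6a1, -0.03 for Cox6b1, 0.05 for Cox7a2 and -0.08 for Cox8a at 90 days.

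Some symbols match the rule although their product has another role. Ndufa4, named for complex I but now regarded as a subunit of complex IV, read 13.28, 13.57, 13.47, 13.24 and 14.05 in PB 28d, against 13.82, 13.18, 14.09, 13.72 and 12.97 in CMC 28d. It read 13.48, 12.79, 13.80, 13.50 and 13.22 in PB 90d, against 13.30, 13.15, 13.17, 13.11 and 13.20 in CMC 90d. The groups overlapped at both durations, with changes of -0.04 ± 0.20 log2 units (SE) and 0.17 ± 0.20 log2 units (SE) (-0.17 and 0.06 over the 18 arrays). Its paralog Ndufa4l2, described above, is likewise not counted as a subunit of complex I. Cox7a2l, which helps complexes III and IV join into supercomplexes, had changes of 0.06 ± 0.12 log2 units (SE) at 28 days and 0.11 ± 0.12 log2 units (SE) at 90 days (0.12 and 0.09 over the 18 arrays). Probe sets that carry a second symbol, such as a near-identical gene copy, were not used for the 79 genes. The 9 of these, for Ndufs5, Ndufb4, Ndufa11, Ndufs6, Ndufa13 and Ndufb2, had differences of group means, PB minus CMC, between -0.12 and 0.13 at 28 days and between 0.05 and 0.29 at 90 days. Signal of a gene and its copy cannot be told apart there.

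Other mitochondrial gene groups, whose lists were chosen with earlier results known, also gave no calls in limma over all 20 arrays. For comparison, 2.86% of all genes at 28 days and 4.53% at 90 days had an unadjusted p under 0.05, and 49.6% and 56.2% had a positive change. Of 42 tested assembly factors of the respiratory chain, 0 were called at either duration, and 0 at 28 days and 1 at 90 days had an unadjusted p under 0.05. Positive changes numbered 5 at 28 days (median -0.14) and 27 at 90 days (median 0.13). Of 74 mitochondrial ribosomal proteins, which translate the mitochondrially encoded subunits, 0 were called, and 2 at 28 days and 0 at 90 days had an unadjusted p under 0.05. Their positive changes numbered 17 at 28 days (median -0.10) and 61 at 90 days (median 0.13). For 24 genes of mitochondrial protein import, 0 were called and 0 had an unadjusted p under 0.05, with medians of -0.04 and 0.17. All 3 groups had medians above 0 at 90 days and below 0 at 28 days over the 20 arrays. In the means over the genes of each group, the higher level in PB 90d rested on PB 90d replicate 3. Without it, the mean over ribosomal protein genes was 9.53 in PB 90d (9.68 with it), against 9.53 in CMC 90d. That over import genes was 9.76 (9.86 with it) against 9.76. That over the 43 assembly factors measured was 8.66 (8.77 with it) against 8.69. At 28 days, leaving out PB 28d replicate 5 lowered the PB means further below those of CMC 28d. They were 9.56 (9.69 with it) against 9.79 for ribosomal proteins and 9.80 (9.88 with it) against 9.92 for import. For assembly factors the mean was 8.68 (8.74 with it) against 8.85.

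Genes of enzymes that feed the chain, and those of mitochondrial biogenesis, had medians below 0 at both durations. Among 17 genes of the tricarboxylic acid cycle and pyruvate dehydrogenase, 0 were called, 0 had an unadjusted p under 0.05 and 5 were positive at each duration, with medians of -0.07 and -0.10. Of 17 other electron donors and carriers, such as the electron-transferring flavoprotein Etfb, 0 were called and 1, at 90 days, had an unadjusted p under 0.05, with medians of -0.10 and -0.02. Of 19 genes of mitochondrial transcription and biogenesis, 0 were called and 0 had an unadjusted p under 0.05, with medians of -0.18 and -0.02. Without PB 28d replicate 5, the mean over tricarboxylic acid cycle genes was 10.56 in PB 28d (10.41 with it), against 10.49 in CMC 28d. Its direction thus turned. That over the other donors and carriers was 10.10 (9.97 with it) against 10.10. That over biogenesis genes was 7.95 (7.91 with it) against 8.07. Without PB 90d replicate 3, each of these means stayed below that of CMC 90d. Cytochrome c, the carrier between complexes III and IV, and 3 further genes outside the symbol rule had 0 calls, 0 unadjusted p under 0.05 and medians of -0.06 and 0.05. In the same fit, 6 of 7 phenobarbital target genes rose at each duration. Among them, Cyp2b10 had a change of 4.90 ± 0.62 log2 units (SE) at 28 days (adjusted p = 0.000572 in limma) and 5.88 ± 0.62 at 90 days (adjusted p = 2.79e-05).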

How the data were processed

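Liver RNA of 20 mice was measured on Affymetrix arrays. The authors deposited log2 values made by RMA, per the submitters' processing notes; its version and the annotation are not given in the sources used here. Of 45037 probe sets, 34945 carry 1 gene symbol on the platform, and the brightest on average was used per gene. Genes above an array's 25th percentile on at least 5 arrays were tested. limma 3.58.1 in R 4.3.3 was fitted to 4 group means with an intensity trend (16 residual degrees of freedom), with two-sided p-values adjusted by Benjamini-Hochberg over all 16054 genes. The fit was tested on simulated data. Figures used Python 3.11.15 and matplotlib 3.10.9.

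The genes and lists were chosen with earlier results of these data known. Genes were named if they were called, were the extremes of a complex at 28 or 90 days, were among the 3 smallest p of a comparison, had a set role (catalytic and core subunits, tissue isoforms, non-subunits), or as stated in the text. Ndufs4, Ndufa7, Ndufa10, Ndufv2, Uqcrc2, Cox7c, Uqcrh, Atp5d, Atp5e and Atp5g3 were chosen after their values were seen. Alternatives covered filters, probe sets, scaling, covariates, array weights and arrays left out. Replicate numbers were not treated as pairs of mice. Deviations of same-numbered PB and CMC mice correlated between -0.599 and 0.36, which cannot show whether these mice shared a day or batch. The number of arrays limits the precision, and no columns were left unused.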

Additional observations from a re-analysis of the deposited data

Results flagged for a closer look

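In 176 groups of 5 arrays, 1 group of a gene or complex mean at a time, 21 (11.9%) held an array far from the other 4 by Dixon's criterion. The groups share the same 20 arrays, and some genes were named as extremes. This share therefore cannot be set against a chance rate. PB 28d replicate 5 was the array far from the others in 11 of the 21 groups and PB 90d replicate 3 in 3.

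On PB 28d replicate 5 the low values were Sdha at 10.94 (next 12.02), Ndufv1 at 10.82 (next 11.68), Ndufs1 at 9.785 (next 10.57), Ndufa13 at 12.04 (next 12.55) and Cox6a1 at 14.11 (next 14.36). In ATP synthase they were Atp5a1 at 12.04 (next 12.88) and Atp5b at 12.50 (next 13.25). The high values there were Cox7a1 at 6.028 (next 4.78), Cox8b at 5.731 (next 4.845), Cox6b2 at 5.181 (next 4.61) and Sdhd at 12.03 (next 11.78).

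On PB 90d replicate 3, Atp5a1 was low at 12.49 (next 12.86) and Ndufv1 low at 11.60 (next 11.85), while Ndufs8 was high at 12.81 (next 12.47). Cox6b2 was high on PB 90d replicate 4 at 5.134 (next 4.616).

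In the vehicle groups, the mean over complex III was high on CMC 90d replicate 1 at 12.70 (next 12.60), as was that over ATP synthase at 12.72 (next 12.62). Cox5a was high on CMC 28d replicate 1 at 13.65 (next 13.42), and Cox8b was high on CMC 90d replicate 4 at 4.797 (next 4.493). Sdha was low on CMC 90d replicate 2 at 12.19 (next 12.37), and Uqcrfs1 low on CMC 28d replicate 5 at 12.14 (next 12.46).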

How the results depend on the processing

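Every alternative left 0 respiratory chain genes called: all 184 counts of called genes stayed at 0, and of 6974 values of named genes 0 changed their call, while 433 uncalled ones changed sign. Directions of the medians were not stable. The 28-day median of the 79 genes, 0.02, was -0.06 without PB 28d replicate 5, -0.03 without CMC 28d replicate 2, -0.05 without CMC 28d replicate 5, -0.03 with array weights and -0.02 when scores on principal component 1 entered the fit as a covariate. The 90-day median, 0.15, was 0.07 without PB 90d replicate 3, 0.21 without PB 90d replicate 2, 0.11 with array weights and 0.01 with that covariate. The covariate was computed from the tested genes, these 79 included, and the arrays with their highest means had its lowest scores. It thus removed part of their own variation, and medians with it are no independent check. The causes were not tested. Centring on the 75th percentile moved the median of all genes at 90 days to 0.13. With the replicate number as a block (replicate block), the medians were 0.02 and 0.15 and 0 respiratory chain genes were called, and over all genes 8 and 22 were called, against 8 and 23 without it. With 5 mice a group, the 95% interval lay within 0.5 log2 units of 0 for 40 of 79 genes at 90 days.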

Other observations

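Other mitochondrial groups were also unevenly placed on the arrays that stood apart. Of 74 mitochondrial ribosomal proteins, 62 were higher on PB 28d replicate 5 than the median of the other 4 PB 28d arrays (median 0.82 log2 units), and 68 were higher on PB 90d replicate 3 than the other 4 PB 90d arrays (median 0.83). For mitochondrial protein import the medians were 0.76 and 0.78, and for assembly factors of the respiratory chain 0.45 and 0.65. Of 17 genes of the tricarboxylic acid cycle and pyruvate dehydrogenase, 5 and 7 were higher, with medians of -0.62 and -0.28. Other electron donors and carriers had medians of -0.46 and 0.13. These deviations are descriptions with no test. Hepatocyte markers had medians of -0.74 and -0.32 on these arrays, as given above.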
